A study of Homo sapiens with 6 samples.

Results

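The sirtuins are a family of 7 human genes, SIRT1 to SIRT7, and all 7 were among the 34834 genes quantified here. The family was taken by name, and it was chosen from these same data because SIRT7 had lower counts after knockdown of DNM3OS, so its values in that comparison are given as a description and carry no test. Sirtuins are enzymes that remove acetyl and other acyl groups from lysines and consume NAD+ in doing so, which ties their activity to the metabolic state of the cell. SIRT1, SIRT6 and SIRT7 are mainly nuclear, SIRT2 is mainly cytosolic, and SIRT3, SIRT4 and SIRT5 are mitochondrial. Members of the family have been described both as promoters and as suppressors of tumors, depending on the tissue.

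RNA was sequenced from SKOV3 cells, an established human ovarian cancer line, in 2 groups. The DNM3OS knockdown group (3 samples) was transfected with a pool of siRNAs against the long non-coding RNA DNM3OS, and the non-targeting group (3 samples) with a pool of control siRNAs, each at 50 nM for 48 h with the same transfection reagent. The comparison asks which transcripts change when DNM3OS is reduced. The sources used here do not say whether the samples of a group were separate cultures, so the p-values below measure only the spread between these samples. All samples are 1 cell line, and in bulk RNA fewer cells and less RNA per cell cannot be told apart.

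The samples held between 1523156 and 1868461 estimated counts on annotated genes. In CPM, the counts scaled to a common library size, 3 counts corresponded to between 1.395 (knockdown sample 1) and 2.105 (knockdown sample 3). None of the 6 annotated DNM3OS transcripts was quantified, so the knockdown could not be checked here. Knockdown sample 1 stood apart: its counts differed most from those of the other samples, and its profile was closest to non-targeting sample 2 (Pearson r of 0.924 across genes, which are not independent replicates). Of 10 markers of ovarian carcinoma lines, 6 passed the filter on low counts, among them KRT8 and ERBB2, while WT1, MUC16 and MSLN were at or near 0. The summed level of all 10 lay between 978 and 2285 CPM. KRT8 made up most of it, at 782 to 1801 CPM. Over the 6 samples ERBB2 averaged 299 CPM, but EPCAM and PAX8 only 14.2 and 19.7 CPM. Of 11 markers of other cell types, 6 also passed and CD3E, VWF and PDGFRB were at or near 0, with a sum over all 11 of 160 to 178 CPM. PTPRC, the leukocyte CD45 gene, averaged 72.4 CPM in the knockdown and 63.7 CPM in the non-targeting group, so a marker that this line should lack was counted at a high level. The part that either list plays in the sirtuin values was not tested.

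SIRT7 is the nucleolar member of the family, which associates with the RNA polymerase that transcribes ribosomal DNA and deacetylates histones. The gene lies on the minus strand at chr17:81911939-81921323 (GRCh38). The knockdown samples had 11, 3 and 5 estimated counts, whereas the non-targeting samples had 24, 19 and 24. Scaled by library, these were 5.12, 2.03 and 3.51 CPM against 13.7, 12.4 and 14.1 CPM. Every knockdown sample lay below every non-targeting sample, and the second knockdown sample was the lowest, at the level of 3 counts. The means were 3.55 ± 1.55 CPM in the knockdown and 13.4 ± 0.869 CPM in the control (SD, n = 3 each), a 3.78-fold lower level. The log2 fold change was -1.83 with a standard error of 0.29. This standard error, like those below, is from the spread of log2 CPM between samples, not from the fit that gave the fold change. Without knockdown sample 1 the log2 fold change was -2.24, and over all samples left out in turn it stayed between -2.24 and -1.58.

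**Figure D1:**
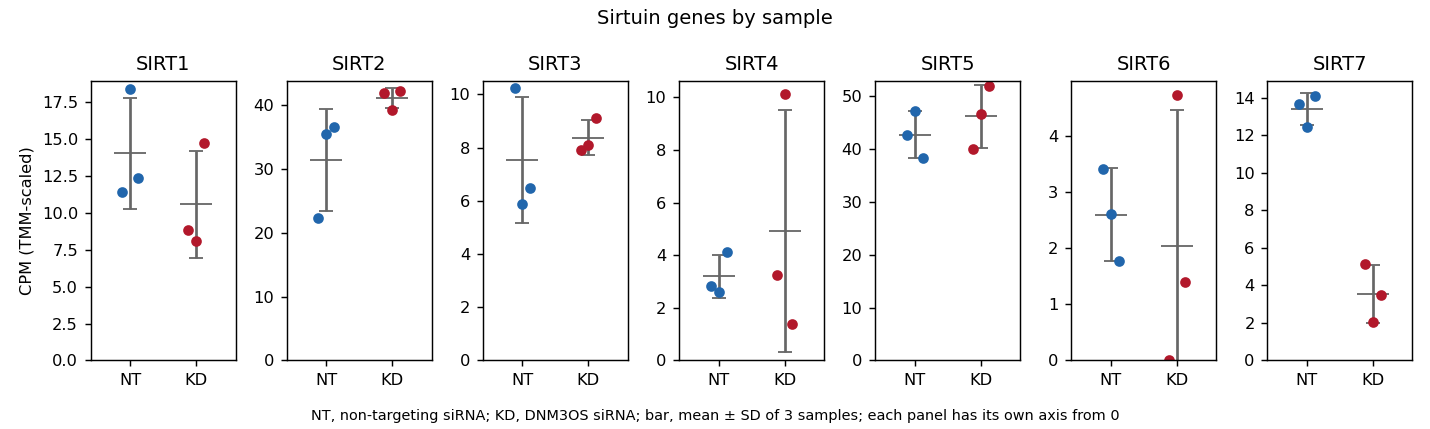
Each panel shows 1 sirtuin gene, with the CPM of each sample as a point (non-targeting left, knockdown right) and the mean and SD of the 3 samples as bar and whiskers. The 3 SIRT7 points of the knockdown lie at 2.03 to 5.12 CPM, below the 12.4 to 14.1 CPM of the control, while only SIRT2 among the others has groups that do not overlap.

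Most SIRT7 counts were assigned to a single transcript that keeps an intron, SIRT7-211, which held 94.2% of the gene's counts in the knockdown and 79.4% in the control. It received 9.6, 2.7 and 5.5 counts in the knockdown and 16.2, 17.4 and 20.1 in the control. On the CPM scale it averaged 3.38 ± 1.38 against 10.8 ± 1.39 (SD, n = 3 each), 3.2-fold lower, with no overlap between the groups. The canonical transcript SIRT7-201, which encodes the enzyme from 10 exons, had 0 counts in all 6 samples. The 7 other SIRT7 transcripts with counts held 1.1, 0 and 0 in the knockdown and 7.4, 2.1 and 4.4 in the control. Of the 1695 stretches of 31 bases in SIRT7-201, the read-match length of the quantifier by default, 0 are found in no other SIRT7 transcript. Its count of 0 therefore does not show that the messenger RNA was absent, and how shared reads were assigned was not tested. These stretches come from the annotated sequence of 1725 bases, whereas the quantified one had 1743. Retained-intron transcripts together held 98.8% of the gene's counts over the 6 samples. Among the 6449 tested coding genes with such a transcript, the median share was 13.2%, and 2.48% of genes had a share as large as that of SIRT7. A canonical transcript with little or no count was less unusual, since 27.0% of 10017 tested coding genes had under 1% of their counts on it.

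The intron that SIRT7-211 keeps, intron 7 of the 9 in SIRT7-201, is printed as a stretch of the most counted transcript that the coding one lacks. The transcripts differ elsewhere too: SIRT7-211 lacks the first 3 exons of SIRT7-201 and begins with an exon of 1543 bases that reaches into the intron before exon 4. It spans chr17:81914168-81914293 on the minus strand (GRCh38), is 126 bases long with 61.1% G and C, and is read 5′ to 3′ with the splice-site dinucleotides in capitals.
SIRT7 intron 7: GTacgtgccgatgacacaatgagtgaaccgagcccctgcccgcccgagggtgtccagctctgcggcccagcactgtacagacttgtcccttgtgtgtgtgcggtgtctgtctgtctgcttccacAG
The intron begins with GT and ends with AG, the usual signals for splicing. Of the 2886 stretches of 31 bases in SIRT7-211, 730 occur in no other SIRT7 transcript.

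**Figure D2:**
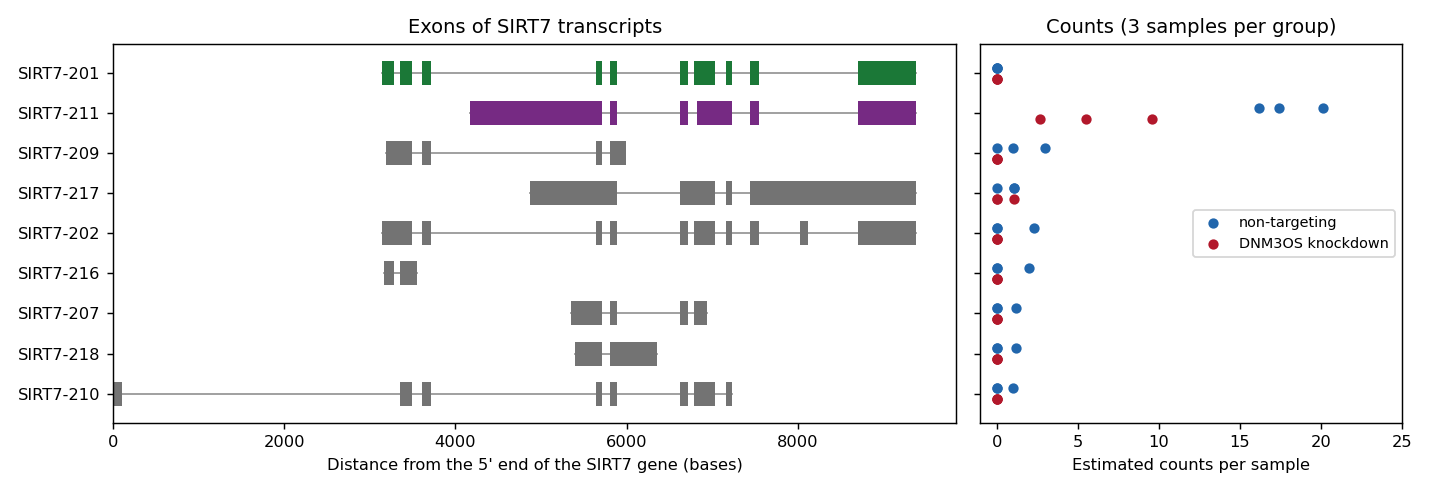
Exons of the SIRT7 transcripts with counts and of the canonical SIRT7-201 are drawn as boxes against distance in bases from the gene's start, beside their counts in each of the 6 samples. SIRT7-211 carries most counts in both groups (2.7 to 9.6 in the knockdown, 16.2 to 20.1 in the control), and SIRT7-201 is at 0 in every sample.

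No exon of SIRT7 lies under an exon of a gene on the other strand; the nearest such gene, the lncRNA ENSG00000264769, is 1575 bases away and was not quantified. On the same strand MAFG, which encodes a small Maf transcription factor, overlaps the span of SIRT7 and shares 78 of the 31-base stretches with its transcripts. SIRT7-210, with 1.175% of the gene's counts, has 78 stretches found in other genes on the same strand. In SIRT7-211, 111 stretches (3.85%) occur in other genes' transcripts on the same strand and 130 (4.5%) in those on the other. The part of these shared stretches in the SIRT7 counts was not tested. MAFG, looked up after its values were seen, had 3, 4 and 2 counts in the knockdown and 14, 4 and 10 in the control and fell below the filter. Its groups overlapped in CPM, at 1.83 ± 0.752 and 5.49 ± 2.7 (SD, n = 3 each). PCYT2, an enzyme of phospholipid synthesis nearby, also looked up afterwards, had 89, 64 and 71 counts against 81, 69 and 64, a log2 fold change of 0.05.

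SIRT1, the nuclear deacetylase of p53 and of FOXO factors, lies at chr10:67884656-67918390 on the plus strand. It had 19, 12 and 21 counts in the knockdown and 20, 28 and 21 in the control. The CPM values were 8.84, 8.1 and 14.7 against 11.4, 18.3 and 12.4, so that the groups overlapped. The log2 fold change was -0.42 with a standard error of 0.31. Unlike SIRT7, SIRT1 had most of its counts, 83.2% of 121, on its canonical transcript SIRT1-201. The exception was knockdown sample 1, where SIRT1-201 had 0 counts and the shorter SIRT1-203 had 17, whereas the other samples had between 12 and 28 counts on SIRT1-201 and at most 1.3 on SIRT1-203.

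SIRT6, the chromatin-bound member linked to DNA repair and glycolysis, lies at chr19:4174109-4182566 on the minus strand and was the lowest of the family. It had 0, 7 and 2 counts in the knockdown and 6, 4 and 3 in the control, too few to pass the filter. The groups overlapped, and the log2 fold change fitted without a filter was -0.41.

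SIRT2, the cytosolic deacetylase of tubulin, lies at chr19:38878555-38899862 on the minus strand. Its counts were 90, 58 and 60 in the knockdown and 39, 54 and 62 in the control. On the CPM scale these were 41.9, 39.2 and 42.1 against 22.2, 35.4 and 36.5. Every knockdown sample lay above every control sample, by a small margin over non-targeting samples 2 and 3. The means were 41.0 ± 1.63 and 31.3 ± 7.93 CPM (SD, n = 3 each), a log2 fold change of 0.39 with a standard error of 0.22. Without non-targeting sample 1, the lowest, it was 0.19.

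The SIRT2 counts were spread over many transcripts, and the canonical SIRT2-201 held 0.38% of them. Retained-intron transcripts held 39.8%, protein-coding transcripts, the canonical one included, 28.4%, transcripts with no defined coding sequence 24.1% and transcripts marked for nonsense-mediated decay 7.75%. The 4 transcripts SIRT2-203, SIRT2-213, SIRT2-216 and SIRT2-218 together held 89.5% of the counts. SIRT2-216 had 29.7, 15.5 and 13.1 counts in the knockdown and 9.9, 12.4 and 7.1 in the control. SIRT2-218 had 16.8, 14 and 11.4 against 5.2, 11.4 and 9.9. Scaled by library, both were higher in every knockdown sample, at 11.2 ± 2.39 against 5.98 ± 1.99 CPM for SIRT2-216 and 8.42 ± 0.899 against 5.42 ± 2.28 CPM for SIRT2-218 (SD, n = 3 each). SIRT2-203, with 24.9, 12 and 8.1 counts against 12.1, 14 and 24.7, did not share that order. The sequence of SIRT2-218 is not particular to the gene: 23.96% of its 31-base stretches occur in other genes' transcripts on the same strand, 20.8% in those on the other strand, and none is found in SIRT2-218 alone. The part of these shared stretches in the SIRT2 difference was not tested.

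The intron kept by the most counted retained-intron transcript of SIRT2 is printed for comparison with that of SIRT7. SIRT2-213, with 11.9, 8.2 and 19.8 counts in the knockdown and 7.3, 13.0 and 13.6 in the control, keeps intron 3 of the 15 in SIRT2-201. The intron spans chr19:38893528-38893818 on the minus strand (GRCh38) and is 291 bases long with 63.6% G and C, again with the splice-site dinucleotides in capitals.
SIRT2 intron 3: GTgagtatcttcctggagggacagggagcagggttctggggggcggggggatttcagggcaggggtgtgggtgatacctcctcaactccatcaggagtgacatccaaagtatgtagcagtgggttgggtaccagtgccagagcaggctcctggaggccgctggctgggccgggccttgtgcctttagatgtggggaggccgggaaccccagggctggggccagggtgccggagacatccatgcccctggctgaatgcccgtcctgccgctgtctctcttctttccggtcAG
In contrast to SIRT7-211, the counts of SIRT2-213 overlapped between the groups.

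SIRT3, the main deacetylase of mitochondria, lies at chr11:215030-236931 on the minus strand. It had 17, 12 and 13 counts in the knockdown and 18, 9 and 11 in the control, or 7.91, 8.1 and 9.12 against 10.2, 5.89 and 6.47 CPM. The groups overlapped, with a log2 fold change of 0.13 and a standard error of 0.22. The canonical SIRT3-201 held 50.9% of the counts and went the other way from the gene: 8.6, 4.5 and 3.2 counts in the knockdown against 9.6, 7.0 and 7.9, with each knockdown sample lower on the CPM scale. By its annotated exons it is also the only SIRT3 transcript whose end lies under an exon of the opposite gene RIC8A, over 84 bases (chr11:215030-215113). The quantified sequence of SIRT3-201 was shorter, at 2543 bases against 2882 annotated, so it is not known whether it reaches RIC8A. RIC8A, a chaperone of G protein alpha subunits, had 108, 102 and 98 counts against 108, 95 and 129, a log2 fold change of -0.10 with an adjusted p of 1 (edgeR exact test).

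SIRT4, a mitochondrial member with ADP-ribosyltransferase and lipoamidase activity, lies at chr12:120302316-120313249 on the plus strand. It had 7, 15 and 2 counts in the knockdown and 5, 4 and 7 in the control, did not pass the filter, and its groups overlapped. Fitted without a filter, the log2 fold change was 0.61. Knockdown samples 2 and 3 held its highest and lowest counts.

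SIRT5, which removes succinyl and malonyl groups in mitochondria, lies at chr6:13574227-13615158 on the plus strand. Its counts were 86, 69 and 74 in the knockdown and 75, 72 and 65 in the control. The CPM values were 40.0, 46.6 and 51.9 against 42.7, 47.1 and 38.2, with overlapping groups. The log2 fold change was 0.11 with a standard error of 0.14. The files held 6 of its 24 annotated transcripts, compared with every annotated transcript of each of the other 6 genes. SIRT5-204 alone had 66.9, 59.7 and 56.4 counts in the knockdown and 63.7, 57.4 and 55.1 in the control, and the canonical transcript held 0.768% of the gene's counts.

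SIRT5 had the longest exonic overlap with a gene on the other strand among the sirtuins. The lncRNA ENSG00000261071 covers 1058 exonic bases at the end of SIRT5 (chr6:13614101-13615158), and 82.3% of the SIRT5 counts were on transcripts annotated as reaching into it. The quantified sequence of SIRT5-204 was shorter than annotated, at 4382 against 4553 bases, so it may hold less of this overlap. That lncRNA was not quantified, so reads from the 2 strands could not be compared. Of all tested genes, 44.02% had a quantified transcript under an opposite exon, and the median share of a gene's counts on such transcripts was 0%. The other overlaps were small: 40 bases between SIRT2 and NFKBIB, an inhibitor of NF-kB, and 12 bases between SIRT4 and the pseudogene RNU6-1088P, although both SIRT4 transcripts with counts (100% of the gene's counts) reach into it. NFKBIB had 56, 28 and 17 counts against 32, 33 and 30, a log2 fold change of 0.01 with an adjusted p of 1 by the same test. SIRT1 and SIRT6 overlapped no opposite exon. The nearest opposite gene of SIRT1 was HERC4, a ubiquitin ligase (log2 fold change 0.14, adjusted p of 1 by the same test), and that of SIRT6 was ANKRD24, with 5 counts in all.

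**Figure D3:**
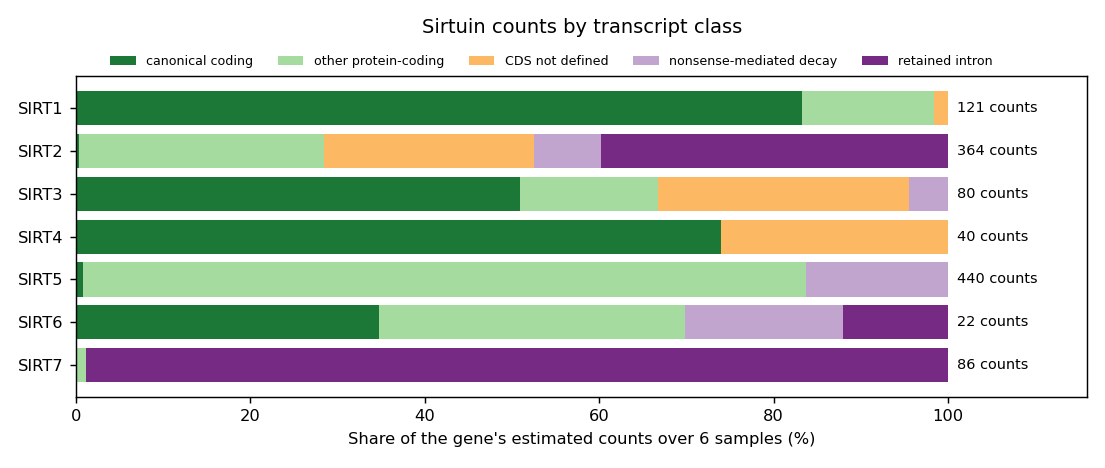
Bars show, for each sirtuin, the percentage of its estimated counts over the 6 samples that fell on each class of annotated transcript. SIRT7 is filled almost wholly by retained-intron transcripts (98.8%), SIRT1 by its canonical transcript (83.2%), and SIRT5 by protein-coding transcripts other than the canonical one.

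When levels were compared per length, in TPM, the transcript abundance normalized for length, SIRT2 was the highest sirtuin at a mean of 82.2 (SD 21.5 over the 6 samples) and SIRT5 the second at 36.9 (SD 5.73). SIRT2 exceeded SIRT5, and SIRT5 exceeded SIRT3, in 6 of 6 samples. Below them the order was SIRT3 (8.29 TPM), SIRT7 (7.44), SIRT4 (6.59), SIRT1 (4.92) and SIRT6 (3.82). Of these neighbours, the higher mean held in 3 of 6 samples for the first 3 pairs and in 4 of 6 for SIRT1 over SIRT6, so their order did not exceed the spread between samples. The place of SIRT7 depended on the group: 2.77, 0.889 and 1.85 TPM in the knockdown and 22.8, 7.85 and 8.46 in the control. Few counts on short transcripts weighed on the 22.8 TPM of non-targeting sample 1. There, 2 counts on SIRT7-216, of 315 bases, gave 9.94 TPM and 3 on SIRT7-209 gave 4.84, beside 4.77 for SIRT7-211. The order also depended on the scale: in CPM, which is not per length, SIRT5 came before SIRT2 and SIRT1 was next. With only transcripts free of opposite overlap, SIRT5 fell to the fourth place in CPM and SIRT4 was the lowest. The median tested gene was at 20.7 TPM, which only SIRT2 and SIRT5 exceeded.

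Of the 7 sirtuins, 5 passed the filter on low counts (SIRT1, SIRT2, SIRT3, SIRT5 and SIRT7). A gene was called when it differed 2-fold or more and its Benjamini-Hochberg adjusted p was under 0.05 in edgeR's exact test over all 11814 tested genes. The threshold for a decrease was passed by 0 of the 5, beside 0.00846% of all tested genes (1 gene, BORCS7-ASMT), and that for an increase by 0 of the 5, beside 0%. The quasi-likelihood test and DESeq2 also called 0 sirtuins. Over all tested genes, 345 had an unadjusted p below 0.05 in the exact test. Nothing is read from these counts, because the same contrast chose the family. When counts were rebuilt from length-scaled TPM, which follow the TPM values above, the log2 fold change of SIRT7 was -2.84. Groups that did not overlap were found for SIRT7 in the lower direction, beside 3.56% of tested genes, and for SIRT2 in the higher direction, beside 4.42%.

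Among the genes whose CPM followed SIRT7 most closely over the 6 samples were ING2, a chromatin reader (Pearson r = 0.988 of log2 CPM), PSMC1, a proteasome ATPase (0.988), PDHX, a subunit of the pyruvate dehydrogenase complex (0.973), and THRB, a thyroid hormone receptor (0.968). These 6 samples share their 2 groups, so a gene that is lower in every knockdown sample tends to score high on this measure. Of the 11813 genes compared, 11 reached an r of 0.95. ING2 had 7, 3 and 4 counts against 15, 12 and 17. Its log2 fold change was -1.65 with an adjusted p of 0.594 (edgeR exact test). The standard error from log2 CPM was 0.16, but choosing genes by r with SIRT7 favours a small spread within groups. PSMC1, with 197, 126 and 126 counts against 182, 157 and 171, had a log2 fold change of only -0.21, so a high r did not mean a difference of similar size.

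Genes around the sirtuins were described from 5 lists. Of their 104 genes 84 were tested, 0 passed the threshold by edgeR's exact test, the quasi-likelihood test or DESeq2, and 4 had an unadjusted p below 0.05 (ACLY, HDAC3, PARP4 and PDHX, named after their values were seen), beside 345 of the 11814 tested genes. Groups did not overlap for 3 genes in the lower direction (HDAC3, ELK4 and PDHX, 3.57%) and 1 in the higher (HDAC6, 1.19%), shares near or below those of all tested genes. HDAC3, a nuclear corepressor enzyme, had 0, 5 and 6 counts in the knockdown against 11, 10 and 11, and PDHX had 103, 58 and 57 against 109, 87 and 97. Sirtuins depend on the supply of NAD+. Of 16 tested genes of NAD+ synthesis and transport, 10 had a higher mean and 6 a lower mean in the knockdown, with a median log2 fold change of 0.09 beside 0.00 for all tested genes. NMNAT1, which makes NAD+ in the nucleus, was at 97.8 ± 10.3 against 82.3 ± 13.6 CPM, and KYNU, of the kynurenine route, at 483 ± 150.3 against 414 ± 107.5 CPM (SD, n = 3 each). QPRT and KMO, enzymes of the same route, had log2 fold changes of -0.08 and -0.19.

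Other enzymes that use up NAD+ had 10 lower and 5 higher means of 15 tested, with a median log2 fold change of -0.03. SARM1, an NAD+ hydrolase known from neurons, was the most counted at 688 ± 138.4 against 741 ± 57.5 CPM (SD, n = 3 each). PARP1, the main DNA-damage ADP-ribosyltransferase, had a log2 fold change of -0.55 with a standard error of 0.46, PARP6 of 0.31 and PARP8 of -0.19. The zinc-dependent histone deacetylases, which also remove acetyl groups from lysines but do not use NAD+, had 7 lower and 3 higher means of 10, with a median of -0.18. HDAC6, which shares tubulin as a substrate with SIRT2, was higher in every knockdown sample, at 54.2 ± 4.59 against 42.8 ± 4.22 CPM (SD, n = 3 each), with a log2 fold change of 0.34 and an adjusted p of 1 (edgeR exact test). HDAC2, HDAC5 and HDAC9 had log2 fold changes of -0.17, 0.06 and 0.12.

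Among partners and substrates of the nuclear and cytosolic sirtuins, 21 of 25 tested genes had a lower mean in the knockdown, beside 5837 of all 11814, and the median log2 fold change was -0.34. The list summed to 1102, 1714 and 1918 CPM in the knockdown and 2047, 1453 and 2114 CPM in the control, lowest in knockdown sample 1 and non-targeting sample 2 of their groups, as were 10 abundant reference mRNAs. The part of that shift in the list's values was not tested. ELK4, a transcription factor that recruits SIRT7 to chromatin, did not overlap between groups, with 42, 30 and 23 counts against 40, 33 and 43 that became lower in the knockdown once scaled by library. It was singled out after its values were seen, and its log2 fold change was -0.31 with an adjusted p of 1 (edgeR exact test). NPM1, a nucleolar substrate of SIRT7, had a log2 fold change of -0.54 with a standard error of 0.65. CCAR2, the inhibitor of SIRT1, HIC1, its repressor, and HIF1A, a substrate, had log2 fold changes of -0.10, 0.03 and -0.05. Of 18 tested mitochondrial substrates, 12 had a lower mean, with a median of -0.06. SOD2, the mitochondrial superoxide dismutase that SIRT3 deacetylates, was at 2710 ± 757 against 2325 ± 430.0 CPM (SD, n = 3 each), and NDUFA9, LONP1 and ALDH2 had log2 fold changes of -0.06, -0.09 and 0.17.

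**Figure D4:**
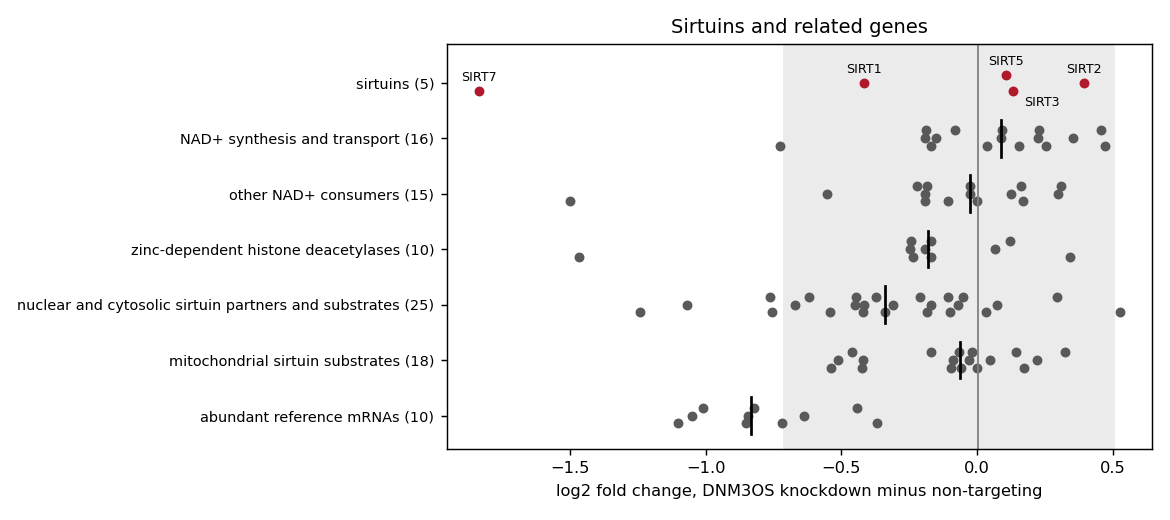
Points show the log2 fold change (knockdown minus non-targeting) of each tested gene of the sirtuins, 5 related lists and 10 abundant reference mRNAs; black ticks mark the median of each list other than the sirtuins, and the grey band leaves out the lowest 5% and the highest 5% of all tested genes, running from -0.71 to 0.50. SIRT7 is the sirtuin outside the band, and the reference mRNAs have a median of -0.83.

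Abundant mRNAs moved in the same direction as SIRT7. The mean of each of 10 reference mRNAs, ACTB among them, was lower in the knockdown than in the control, with a median log2 fold change of -0.83, and 0 of them passed the threshold. Their summed level was 408, 1415 and 1449 CPM in the knockdown and 2547, 934 and 2062 CPM in the control, at most 0.255% of a sample's counts. The groups overlapped in this sum. Of the 10 genes, ACTB alone did not overlap between groups (10%, beside 3.56% of tested genes in the lower direction). It was at 16.74, 50.65 and 46.31 CPM in the knockdown and 63.8, 62.85 and 106.5 CPM in the control. An unadjusted p below 0.05 in the exact test was found for 2 of the 10, beside 345 of the 11814 tested genes. Knockdown sample 1 and non-targeting sample 2 had the lowest sums of their groups and held 5.12 and 12.4 CPM of SIRT7. The part of this shift in the SIRT7 difference was not tested. EEF1A1, the highest of the 10, averaged 378 CPM over the 6 samples, GAPDH 123 CPM and ACTB 57.8 CPM, each below SARM1 at 714 CPM. Such levels are low for abundant mRNAs, so the levels, ranks and transcript shares of the sirtuins may not be those of ordinary messenger RNA. The cause of these low levels was not tested. The kit marks strand, and whether the quantification used it is not given in the sources used here, so reads from the 2 strands of a locus may not be separated in any value above.

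**Figure D5:**
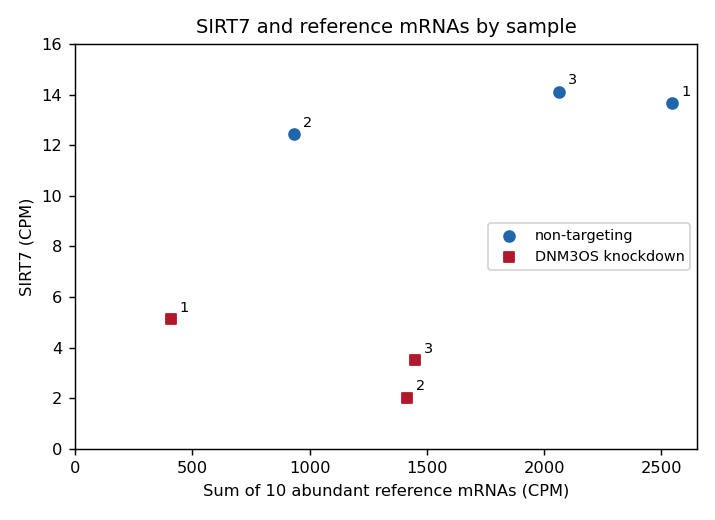
The CPM of SIRT7 in each of the 6 samples is plotted against the summed CPM of 10 abundant reference mRNAs in the same sample. The reference sums run from 408 to 1449 CPM in the knockdown and from 934 to 2547 CPM in the control, and SIRT7 from 2.03 to 5.12 and from 12.4 to 14.1 CPM.

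DNM3OS is the host of the miRNAs miR-214 and miR-199a, which bind mRNAs through bases 2 to 8, the seed. These miRNAs were not measured here. Their mature sequences from RefSeq (GRCh38.p14) are shown with the seed in capitals, because matches in the sirtuin 3′ ends can be read against them. Both genes lie on the minus strand of chromosome 1, with the miR-214 arms at chr1:172138816-172138837 (3p) and chr1:172138857-172138878 (5p) and the miR-199a arms at chr1:172144554-172144575 (3p) and chr1:172144592-172144614 (5p).
hsa-miR-214-3p: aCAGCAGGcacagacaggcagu
hsa-miR-214-5p: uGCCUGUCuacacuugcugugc
hsa-miR-199a-3p: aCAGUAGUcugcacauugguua
hsa-miR-199a-5p: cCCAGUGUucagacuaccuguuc
The 4 seeds differ, and the sites searched, on the transcript strand, were their reverse complements. The site was CCTGCTG for miR-214-3p and GACAGGC for miR-214-5p. It was ACTACTG for miR-199a-3p and ACACTGG for miR-199a-5p.

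Matches were present in 3 of the 7 sirtuins, each once, in the 3′ UTR of the canonical transcript. The UTRs are those of the annotation. Quantified sequences of SIRT1-201, SIRT3-201 and SIRT5-205 were shorter, at 4094, 2543 and 3922 bases against 4107, 2882 and 4564 annotated. The matches are given in capitals, the first base counted from the start of the UTR.
SIRT1 for miR-199a-5p, base 507 of 1797: aattatttttaaACACTGGcattttcc
SIRT3 for miR-214-3p, base 898 of 1668: gagtcctggccaCCTGCTGgattgtga
SIRT5 for miR-214-3p, base 1516 of 3293: ggccttggaatgCCTGCTGtccagcag
Such matches are common. Of 19481 annotated 3′ UTRs, 21.1% hold the miR-214-3p site, 12.4% the miR-199a-5p site, 8.5% the miR-214-5p site and 8.26% the miR-199a-3p site. Among UTRs within 20% of the same length the shares were 14.3% for SIRT1, 23.7% for SIRT3 and 34.3% for SIRT5. The log2 fold changes of the 3 genes, over all their transcripts, were -0.42, 0.13 and 0.11. SIRT2, SIRT4, SIRT6 and SIRT7 held none of the 4 sites in this window. The canonical transcripts searched held 0% of the SIRT7 counts, 0.38% of the SIRT2 counts and 0.768% of the SIRT5 counts. They held 83.2% of the SIRT1 counts and 50.9% of the SIRT3 counts. On the CPM scale SIRT3-201 was lower in every knockdown sample, unlike its gene, and SIRT1-201 overlapped between the groups.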

How the data were processed

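Paired-end RNA sequencing of SKOV3 cells (3 DNM3OS knockdown, 3 non-targeting samples, grouped by their labels) was analysed from transcript tables. The authors made stranded total RNA libraries after ribosomal RNA depletion and quantified Ensembl transcripts of GRCh38 with kallisto 0.43.0 (version from the submitters' processing notes). The deposited values of a transcript are an estimated count, not normalized, and a TPM (abundance per length). The strand option was not given in the sources used here.

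Of 173259 transcripts, 155518 were in GENCODE 44 and the other 17741 were not used. Estimated counts were summed per gene, rounded, filtered with filterByExpr (minimum count 10), scaled by TMM and compared with edgeR's exact test (edgeR 4.0.16, R 4.3.3) with Benjamini-Hochberg adjustment. The study's methods name tximport sums and the exact test; the filter, the rounding and TMM were choices made here. CPM used TMM-scaled library sizes, and standard errors came from log2 CPM (prior count 2). No p-values are given for sirtuins. The scripts were tested on simulated counts.

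The sirtuins and the gene lists were chosen with earlier results of these data known. Genes named were the sirtuins, opposite-strand neighbours, the 4 most counted tested members of each list with any past the threshold, and the 5 genes most correlated with SIRT7, of which 1 is not reported here; others are marked where named. Alternatives were the quasi-likelihood test with and without a replicate block, DESeq2 1.42.0, RLE scaling, 2 other filters, length-scaled TPM counts, transcripts without opposite overlap (bedtools 2.31.1) and each sample left out. RefSeq protein and SIRT7 promoter sequences were not used here.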

Additional observations from a re-analysis of the deposited data

How the results depend on the processing

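The SIRT7 log2 fold change was negative in all 14 settings, from -2.84 (length-scaled TPM counts) to -1.58, and it was -1.90 in the quasi-likelihood test with a replicate block. The directions of SIRT1, SIRT2, SIRT3 and SIRT5 also stayed the same, although SIRT3 came as close to 0 as 0.00. Sirtuins past the threshold numbered 0 except with length-scaled TPM counts, which gave 1 (SIRT7, from which nothing is read because this contrast chose the family), and listed pathway genes numbered 0 in every setting. Genes lower in the knockdown numbered 1 in the main comparison, 0 by the quasi-likelihood test, 0 with the replicate block, 0 by DESeq2 and 0 with transcripts free of opposite overlap, 2 without a filter, 2 with the 1 CPM filter and 3 with length-scaled TPM counts. With each sample left out in turn they numbered 0 to 3, and genes higher 0 to 1. Unadjusted p-values below 0.05 numbered 345 by the exact test, 346 by quasi-likelihood, 160 with the block and 192 by DESeq2. Samples with the same number deviated together with r of -0.40, -0.34 and 0.23, so the numbers were not treated as pairs. SIRT4 and SIRT6 failed the main filter. With no filter their log2 fold changes were 0.61 and -0.41, and with the 1 CPM filter 0.59 and -0.43. The order of levels in CPM differed from that in TPM and from that with transcripts free of opposite overlap, where SIRT5 went from the first to the fourth place. The cause of the changes between settings was not tested.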
